A study of Homo sapiens with 4 samples.

Results

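Methylation of messenger RNA at N6-adenosine (m6A) was mapped as enriched intervals, which were examined here in 7 genes of the Wnt and beta-catenin pathway: LRP6, FZD6, APC, AXIN1, AXIN2, CTNNB1 and TCF7L2. Members were all intervals of the deposited lists that overlapped an hg19 window around each gene on the gene's strand. These were 22 of the 13691 intervals listed for METTL3 knockdown and 22 of the 11038 listed without it, 30 distinct intervals in all. The cells were 16-HBE, an established line of human bronchial epithelial cells. Those of the siMETTL3+CSE group received siRNA against METTL3, the enzyme that writes most m6A in mRNA, and cigarette smoke extract (CSE) at 5% for 24 h. Those of the CSE group, labelled WT, received the same exposure and no named siRNA. Each group had an IP library, made with an m6A antibody, and an input library without precipitation. There was no group without smoke extract, and METTL3 reduction and siRNA transfection cannot be told apart. The design text gives 3 replicates per group, but 1 list per group was used here, so no value has a replicate error and no test between groups was possible. The lists hold no expression values, so neither the METTL3 level nor markers of the cell line could be checked.

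In Wnt signalling, a secreted ligand joins a Frizzled receptor and the co-receptor LRP5 or LRP6 at the cell surface. Without ligand, a destruction complex built on the scaffold AXIN with the tumour suppressor APC marks beta-catenin for degradation. With ligand the complex is inhibited, and beta-catenin enters the nucleus and binds factors of the TCF family, which then activate target genes such as AXIN2. In airway epithelium the pathway is known for roles in progenitor growth and repair. In mRNA, m6A is known to lie often near stop codons and in long exons, at short motifs with the core GGAC among the most frequent.

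Of the 7 genes, 5 had listed intervals in both groups and 2, CTNNB1 and AXIN2, had none in either. The lists name no genes, and the annotation used, GENCODE 29, belongs to GRCh38, so no position was carried over. Lengths were compared instead. Each window was 0.258 to 1.57 kb longer than its gene in GENCODE, with the same chromosome and strand. Of the 30 distinct intervals, 20 had both borders at those of an annotated exon, judged by exon length together with the distances between exons of the gene. The other 10 shared 1 border with an exon. By width alone, 21 of the 30 equalled an exon length of their own gene. For comparison with that number, the share of all 24729 intervals with a width equal to some exon length of a given gene was computed. It was 2.64% (FZD6) to 6.88% (TCF7L2) for the genes with intervals and 14.2% for CTNNB1. The distances were set from the same length matches. In APC, with 1 such match, the only check is the common 5′ border of its 2 wide intervals, which fell at an exon start at that distance. The listed intervals of these genes are therefore described below by exon, numbered in 1 coding transcript per gene: LRP6-201, FZD6-201, APC-201, AXIN1-201, AXIN2-201, CTNNB1-241 and TCF7L2-220.

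Coding exons of 4 of the genes are printed first, because they show where the lists differed within a gene. The first is the LRP6 exon listed in CSE alone (chr12:12356137-12356334, hg19, minus strand), set beside a related LRP6 exon listed in both groups (chr12:12332744-12332915, minus strand). Next are exons listed in CSE alone in APC (chr5:112102023-112102107, plus strand) and AXIN1 (chr16:364543-364683, minus strand). The last pair are neighbouring TCF7L2 exons, exon 9 listed with METTL3 knockdown alone (chr10:114910742-114910882, plus strand) and exon 10 listed in both groups (chr10:114911484-114911643, plus strand). Letters are those of the GENCODE 29 transcripts (GRCh38), 5′ to 3′ in the sense of the RNA, with T for U and GGAC in capitals.
LRP6 exon 3: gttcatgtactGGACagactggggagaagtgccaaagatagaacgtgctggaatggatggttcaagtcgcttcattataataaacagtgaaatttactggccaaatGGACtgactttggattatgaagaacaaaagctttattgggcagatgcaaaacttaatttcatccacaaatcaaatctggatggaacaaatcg
LRP6 exon 7: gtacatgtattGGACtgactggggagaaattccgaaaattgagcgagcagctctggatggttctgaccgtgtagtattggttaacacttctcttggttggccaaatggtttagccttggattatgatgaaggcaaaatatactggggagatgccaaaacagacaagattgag
APC exon 3: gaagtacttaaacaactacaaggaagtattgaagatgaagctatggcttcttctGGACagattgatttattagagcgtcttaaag
AXIN1 exon 3: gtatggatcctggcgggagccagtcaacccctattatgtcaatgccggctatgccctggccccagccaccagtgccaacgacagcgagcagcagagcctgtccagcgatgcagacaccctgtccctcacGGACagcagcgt
TCF7L2 exon 9: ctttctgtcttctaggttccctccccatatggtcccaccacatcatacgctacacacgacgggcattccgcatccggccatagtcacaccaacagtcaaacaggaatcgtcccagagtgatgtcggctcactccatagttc
TCF7L2 exon 10: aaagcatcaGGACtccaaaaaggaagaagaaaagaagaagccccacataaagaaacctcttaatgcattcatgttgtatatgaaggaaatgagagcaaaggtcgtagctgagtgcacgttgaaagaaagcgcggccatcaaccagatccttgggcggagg

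GGAC was found in 20 of the 27 distinct intervals outside FZD6, and its reverse complement GTCC, which is the same motif read on the other strand, in 18. By group GGAC was in 2 of 3 intervals listed with knockdown alone, 4 of 5 listed in CSE alone and 14 of 19 overlapping ones. The overlapping ones count the last exons of APC, LRP6 and TCF7L2 once per list, because their borders differed. By whole exon, GGAC was in 11 of the 16 listed in both groups outside FZD6. Presence depends on width, and no background of like width was computed for these counts. The printed exons are examples, and no difference in GGAC between the groups is drawn from them. Among those not printed, AXIN1 exon 2 and exon 1, listed with knockdown alone, held 8 and 1 copies, and TCF7L2 exon 5, listed in CSE alone, held 0. FZD6 sequence was not analysed here. The LRP6 exons 3 and 7 both held GGAC from base 12, in a stretch that codes for the extracellular YWTD repeats, and exon 3 held a further copy. TCF7L2 exon 9 held 0 copies of GGAC and 2 of GTCC, while exon 10 held GGAC from base 10. AXIN1 exon 3 likewise held 2 copies of GTCC, beside its GGAC, and the other printed exons held 0 of GTCC. Of coding exons with a length within 10% of each printed one, GGAC was present in 31.2% at the length of APC exon 3, in 47.7% at the length of AXIN1 exon 3 and TCF7L2 exon 9, in 51.9% for TCF7L2 exon 10, 54.6% for LRP6 exon 7 and 59.3% for LRP6 exon 3. These background exons came from 1 transcript of each coding gene whose sequence was used here. A match describes these letters only and marks no modified base.

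**Figure D1:**
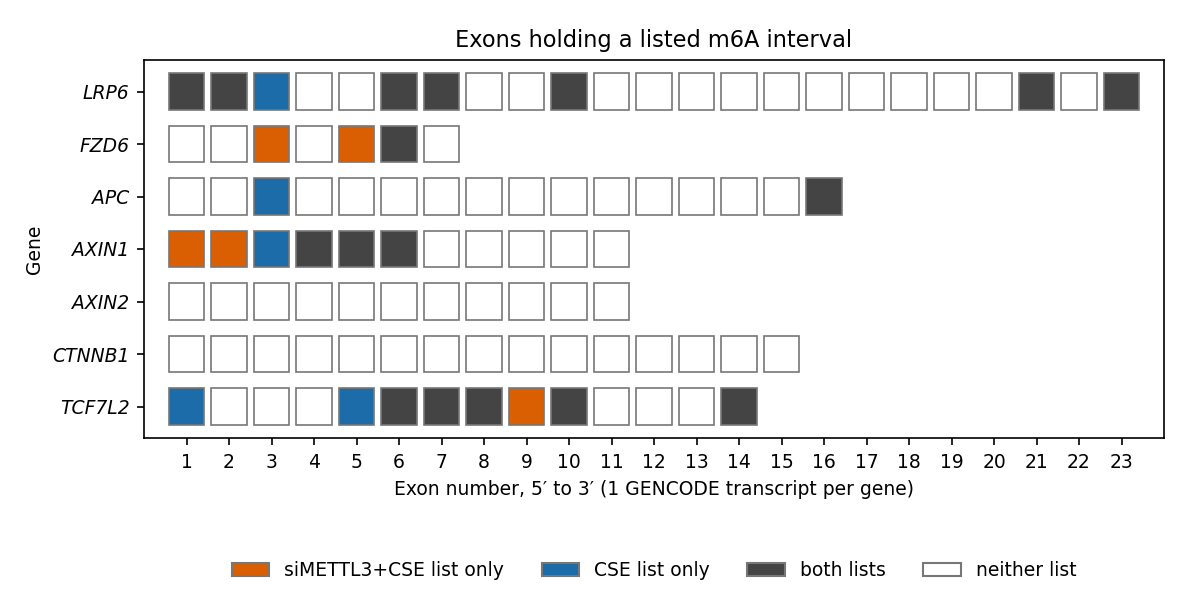
Each square is an exon of 1 GENCODE transcript per gene (x axis, exon number from 5′ to 3′; y axis, gene). Orange marks exons with an interval in the siMETTL3+CSE list alone, blue in the CSE list alone, dark grey in both and white in neither. AXIN2 and CTNNB1 have no marked exon, and most marked exons of LRP6 and TCF7L2 are dark grey.

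The 7 genes gave equal numbers of intervals in both lists, of which the same number overlapped, 17 of 22 in each. This equality was lost when only intervals scoring in the upper 50% of their list were kept. The genes then had 17 intervals with knockdown and 11 in CSE, and 52.9% with knockdown and 81.8% in CSE overlapped a kept interval of the other list. Both shares count the same number of overlapping intervals and differ only through the numbers kept. No share of the whole lists at this cut is given beside them, so they show no difference particular to these genes. With knockdown, 5 of 22 intervals had no CSE overlap, or 22.7% (exact 95% interval 7.82 to 45.4), where the whole siMETTL3+CSE list had 35.5%. In CSE, 5 of 22 had no knockdown overlap, again 22.7% (7.82 to 45.4), where the whole CSE list had 19.9%. Identical borders were found for 14 of 22 intervals, or 63.6% (40.7 to 82.8) of each set, where the whole lists had 53.0% with knockdown and 65.8% in CSE. All 4 of these shares of whole lists lie inside the counting intervals of the members, so no departure from the lists was detectable with 22 intervals. Among the 14 pairs with identical borders, the authors' score, whose scale is not stated, was higher in the siMETTL3+CSE list for 11, or 78.6%, beside 73.2% of the 7258 such pairs in the whole lists. The median width was 212 nt with knockdown (138 to 411) and 185 nt in CSE (133 to 411), beside 218 nt in the whole siMETTL3+CSE list and 285 nt in the whole CSE list. In the upper 50% by score the order of these medians turned, with 308 nt with knockdown and 394 nt in CSE. Intervals cover counting error only and treat the listed intervals as independent, although those of a gene share its RNA.

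LRP6, the co-receptor, had the most intervals in the whole lists, 7 in the siMETTL3+CSE list and 8 in the CSE list. In the upper 50% by score it had 5 with knockdown, as many as TCF7L2, and 2 in CSE, fewer than TCF7L2 with 4 and AXIN1 with 3. All 7 of the knockdown intervals overlapped CSE intervals, and 6 of them had identical borders. They lay in exons 1, 2, 6, 7, 10, 21 and 23 of 23. The interval at exon 1, with 332 nt, matched the first exon of another coding transcript, LRP6-202, which is annotated as 5′ untranslated there. The overlapping exon 1 of LRP6-201 has 132 nt, of which 55 are coding. Within the lists, the highest LRP6 score was 1344.0 in the siMETTL3+CSE list, at percentile 82.3 of that list, and belonged to exon 23. A percentile is the place of a score among all intervals of its own list. In the CSE list the same exon scored 206.9, at percentile 47.5. The highest LRP6 score of the CSE list was 239.4, for exon 2. That exon scored 476.9 in the siMETTL3+CSE list. Exon 21 scored 459.6 with knockdown and 109.1 in CSE, the interval at exon 1 scored 500.0 with knockdown and 167.2 in CSE, and exon 6 scored 308.2 with knockdown and 239.2 in CSE.

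LRP6 exon 10 had the opposite order. It scored 53.8 in the siMETTL3+CSE list, where 50.02 was the lowest score of any interval, and 159.7 in the CSE list, which are percentile 2.40 of the siMETTL3+CSE list and percentile 39.9 of the CSE list. Exon 7 was low in both groups, with 81.2 in the siMETTL3+CSE list and 76.7 in the CSE list. Exon 3 was listed in CSE alone, with a score of 83.6 at percentile 18.7. The nearest siMETTL3+CSE interval on the strand lay 21.8 kb away. Apart from the last exon with knockdown, no LRP6 interval of either list was above percentile 64.4 of its list. Scores of different lists are set side by side as values within each list and show no change in m6A.

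FZD6, a Frizzled receptor best known for planar cell polarity, held the highest score of the 7 genes in both lists. Its exon 6 of 7, 411 nt of coding sequence (chr8:104341883-104342293), scored 3100 in the siMETTL3+CSE list, at percentile 95.5, and 2176 in the CSE list, at percentile 91.4. Scores of 3100 or more were shared by 1170 intervals of the siMETTL3+CSE list and 660 of the CSE list. With knockdown, 2 further coding exons were listed that had no CSE interval. Exon 3 (197 nt) scored 344.9 and exon 5 (149 nt) scored 231.8, at percentiles 55.3 and 45.1. The 2 longest exons of FZD6, 4 and 7, with 1018 and 1519 nt, were listed in neither group.

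APC, a scaffold of the destruction complex, had 1 interval with knockdown and 2 in CSE. Its last exon carries the repeats that bind beta-catenin and was listed in both groups as a very wide interval, of 7198 nt in the siMETTL3+CSE list and 7170 nt in the CSE list. These were the widest intervals of the 7 genes. Their scores were 790.2 at percentile 73.9 with knockdown and 567.6 at percentile 72.9 in CSE. The interval listed in CSE alone was the 85 nt exon 3 printed above, with a score of 58.9 at percentile 6.42. No siMETTL3+CSE interval was listed on its strand within 71.1 kb.

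AXIN1, the scaffold that assembles the same complex, differed between the lists at its 5′ end. Exons 1 and 2 were listed with knockdown and not in CSE. Exon 2, of 959 nt, holds 81 nt of 5′ untranslated and 878 nt of coding sequence, including the domain that binds APC (chr16:396148-397106, minus strand). It scored 1872.9 in the siMETTL3+CSE list, at percentile 86.3, the highest of the 5 intervals listed with knockdown alone. The interval at exon 1, of 308 nt, scored 391.7 and reached 17 nt beyond the annotated exon. Exon 3 was listed in CSE and not with knockdown, with a score of 547.0 at percentile 72.1.

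Exons 4, 5 and 6 of AXIN1 were listed in both groups with identical borders. Exon 6, of 530 nt, scored 478.7 in the siMETTL3+CSE list and 1802.2 in the CSE list, which are percentile 63.2 of the siMETTL3+CSE list and percentile 89.9 of the CSE list. Exon 4 had the other order, with 637.2 in the siMETTL3+CSE list and 268.2 in the CSE list, and exon 5 scored 152.5 in the siMETTL3+CSE list and 150.4 in the CSE list. The AXIN1 exon with the highest score was therefore exon 2 with knockdown and exon 6 in CSE. Covered length was 2032 nt with knockdown and 906 nt in CSE, of which exon 2 alone made up 959 nt with knockdown. None of exons 7 to 11, the last of which holds the stop codon, was listed in either group.

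AXIN2, the pathway's feedback inhibitor and target gene, and CTNNB1, which codes for beta-catenin itself, had 0 intervals in the siMETTL3+CSE list and 0 in the CSE list. The nearest listed intervals on the strand of CTNNB1 lay 654.9 kb below and 864.9 kb above its window with knockdown, and 676.6 and 864.9 kb in CSE. For AXIN2 the distances were 471.1 and 1516 kb with knockdown, and 471.1 and 1525 kb in CSE. The coding sequence of CTNNB1 held 19 copies of GGAC, or 8.11 per kb, beside 8.51 per kb in AXIN1, 6.61 in LRP6, 3.56 in AXIN2, 2.81 in APC and 2.75 in TCF7L2. The number of listed intervals did not follow this order, since TCF7L2 had 6 with knockdown and 7 in CSE. An unlisted gene or exon is not shown to lack m6A, because the lists give neither read counts nor the level of the RNA.

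TCF7L2, a transcription factor that binds beta-catenin, had 6 intervals in the siMETTL3+CSE list and 7 in the CSE list. Exon 10, where the DNA-binding HMG box begins, had the highest score of the gene in both lists, 2571.4 with knockdown and 1314.9 in CSE, at percentile 89.7 with knockdown and percentile 86.5 in CSE. Exons 6, 7 and 8 were also shared with identical borders. Exon 6 scored 378.0 in the siMETTL3+CSE list and 619.5 in the CSE list, exon 7 scored 302.0 with knockdown and 220.4 in CSE, and exon 8 scored 387.1 with knockdown and 283.5 in CSE. The intervals of exons 7 and 8 were 3 and 6 nt longer than the annotated exons.

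Exon 9 of TCF7L2 was listed with knockdown alone, with a score of 758.2 at percentile 73.2. The nearest CSE interval on the strand, exon 10, was 602 nt away. The width of 141 nt is that of the exon in TCF7L2-220, in which it starts 15 nt upstream of the 126 nt form found in 12 other coding transcripts of the gene. In CSE alone, the 696 nt first exon scored 126.2 and an interval of 123 nt at exon 5 scored 63.3, at percentiles 32.4 and 9.21. The first exon holds 507 nt of 5′ untranslated and 189 nt of coding sequence. In TCF7L2 the 2 CSE-only intervals lay upstream of the 1 listed with knockdown alone. In AXIN1 the order was the other way, so no pattern of position by group is drawn from them.

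**Figure D2:**
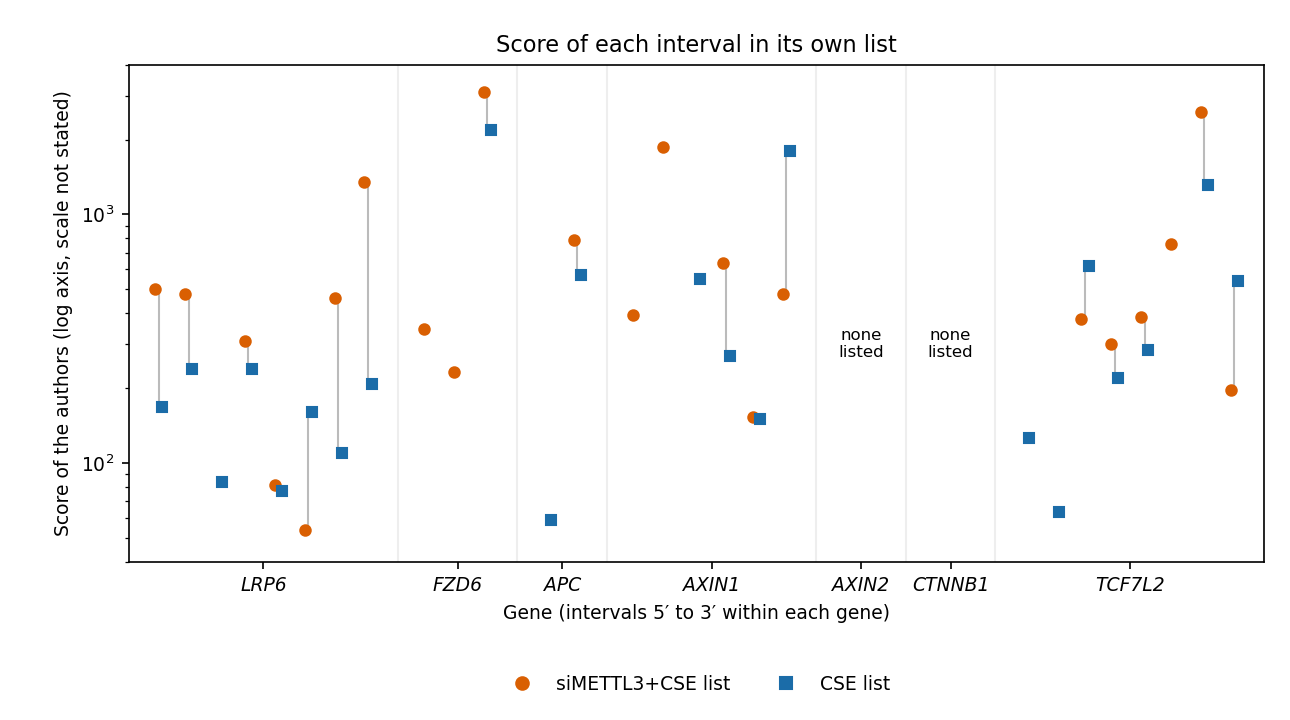
Points are the authors' scores (y axis, log scale, unit not stated) of every listed interval, ordered from 5′ to 3′ within each gene (x axis); orange circles are the siMETTL3+CSE list, blue squares the CSE list, and grey lines join overlapping intervals. The highest pair is FZD6 exon 6, and the orange circle without a partner at 1872.9 is AXIN1 exon 2.

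The last exons of LRP6, APC and TCF7L2 were listed in both groups with the 5′ border at the exon start and a different 3′ border in each list. These 3 pairs were all of the overlapping intervals whose borders differed, and the only intervals in last exons. All of them reached from coding sequence over its end into the 3′ untranslated region. Beyond the last coding base before the stop codon, the LRP6 interval ran 869 nt with knockdown and 903 nt in CSE. In APC it ran 627 nt with knockdown and 599 nt in CSE. In TCF7L2 it ran 1244 nt with knockdown and 759 nt in CSE, a difference of 485 nt in width, counted for the reading frame of TCF7L2-220. The TCF7L2 interval scored 196.4 in the siMETTL3+CSE list and 539.1 in the CSE list, so the wider interval had the lower score. In LRP6 the greater part of the last exon, 4235 nt with knockdown and 4201 nt in CSE, lay outside the interval.

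**Figure D3:**
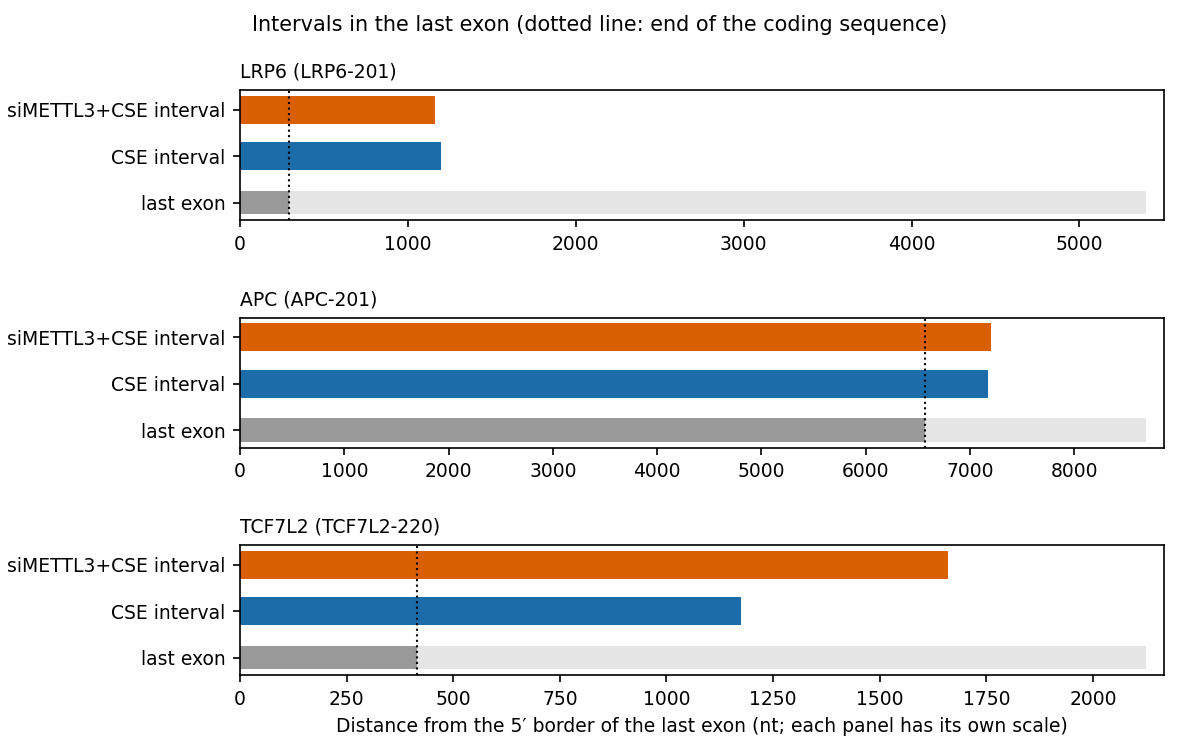
Bars run from the 5′ border of the last exon (x axis, nt) for the siMETTL3+CSE interval (orange), the CSE interval (blue) and the exon itself (dark grey coding, light grey untranslated); the dotted line is the end of the coding sequence. The borders are 28 nt further with knockdown in APC and 485 nt further in TCF7L2, while in LRP6 the CSE interval is the longer, with 1195 against 1161 nt.

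Over the 5 genes with intervals, 27 of 71 exons were listed in at least 1 group: 17 in both, 5 with knockdown alone and 5 in CSE alone. The 27 listed exons had a median length of 172 nt and the 44 unlisted ones 159 nt. In the 4 of these genes with sequence used here, GGAC was present in 17 of 24 listed and 22 of 40 unlisted exons. Per kb of exon there were 3.02 copies in listed and 5.09 in unlisted exons. Whole exons were counted, also where an interval covered only a part, so these values do not describe listed sequence alone. The order rested on the last exons of APC and LRP6, of 8687 and 5396 nt with 16 and 9 copies. Of the 9 copies in the LRP6 exon, the interval of each list held 1. Without these last exons, a choice made after seeing the data, listed exons had 5.37 copies per kb, and the order turned. Within genes, with these last exons counted, the order differed too. Listed exons had 7.42 and unlisted ones 5.38 copies per kb in AXIN1, and in TCF7L2 listed exons had 2.54 and unlisted ones 2.04. In APC listed exons had 1.94 and unlisted ones 4.15, and in LRP6 listed exons had 3.26 and unlisted ones 6.07. In both genes this order again rested on the last exon. The 1 other listed exon of APC had 11.8 copies per kb. In LRP6 the last exon made up 5396 of the 7053 nt of listed exons and 9 of their 23 copies. No difference between the genes is therefore drawn from these values. The CSE-only intervals had scores from 58.9 to 547.0 and the knockdown-only ones from 231.8 to 1872.9, each within its own list.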

How the data were processed

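Poly(A) RNA was precipitated with an m6A antibody and sequenced beside input, per the labels' protocols. Per the submitters' processing notes, HISAT2 2.0.4 was the aligner and hg19 the build. The authors deposited 1 list per group with start, end, strand and a score for each interval. Interval names start with MACS, per the deposited names. The caller's version and settings, the score's scale and the treatment of replicates are not stated. Read depth was not used here, so precision is known only as counting error of intervals.

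Starts and ends are deposited positions, given here counting from 1. Intervals counted as overlapping from 1 bp on the same strand. Exons, lengths and letters came from GENCODE 29. The transcript of each gene was the coding one with most interval borders, otherwise the principal one of greatest length. Shares carry exact Clopper-Pearson 95% intervals and medians exact order-statistic intervals (Python 3.11.15, SciPy 1.17.1). Overlap and motif counting were tested on simulated data. All 7 members and all of their intervals are described. Members, windows and lists were chosen with earlier results of these data known. Other pathway genes were not analysed here, because no annotation of hg19 was used.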

Additional observations from a re-analysis of the deposited data

Results flagged for a closer look

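Interval names carry a running number that rises along each chromosome, and numbers without a listed interval fell inside the gene windows, outside every comparison above. Between the first and last listed interval of each gene, 11 numbers were unlisted in the siMETTL3+CSE list and 18 in the CSE list. LRP6 had 7 of these with knockdown and 7 in CSE. TCF7L2 had 2 with knockdown and 7 in CSE, and APC 0 with knockdown and 4 in CSE. AXIN1 and FZD6 each had 1 with knockdown and 0 in CSE. If the numbers count calls, unlisted calls of either strand lay there. At the place of TCF7L2 exon 9, listed with knockdown alone, the CSE list had 0 unlisted numbers between its neighbouring intervals. In the stretch between listed neighbours that holds AXIN1 exons 1 and 2, the CSE list had 2. In the stretch that holds the knockdown-only exons of FZD6 it had 13. In such stretches around the CSE-only exons, the siMETTL3+CSE list had 1 for AXIN1, 4 for LRP6, 12 for APC and 16 for TCF7L2. For AXIN1 exons 1 and 2 and the exons of FZD6, APC and TCF7L2 in CSE alone, a neighbour lay outside the gene window. Those numbers need not lie in the gene, and none is placed at an exon. Around CTNNB1, 8 numbers were unlisted between the flanking intervals with knockdown and 8 in CSE, and around AXIN2 3 with knockdown and 20 in CSE. Their part in the results was not tested.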

How the results depend on the processing

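Among 103 recomputed values, 97 lay within the counting interval of the reported one or, for counts, covered lengths and GGAC per kb, within a factor of 1.5. Of the other 6, 5 came from keeping the upper 50% of each list by score, which removes intervals by construction. There the siMETTL3+CSE list had 17 intervals in the 7 windows and the CSE list 11, against 22 in each whole list. Of these, 52.9% of the knockdown set and 81.8% of the CSE set overlapped, against 77.3% in each. The overlapping intervals are equal in number in both sets, and no whole-list share at this cut is given. The single genes that moved were APC, LRP6 and TCF7L2 in CSE, with 1, 2 and 4 intervals. The counting intervals are wide, and values inside them still shifted. The median width became 308 nt with knockdown and 394 nt in CSE, against 212 nt with knockdown and 185 nt in CSE in the whole lists, which turned their order. The median percentile became 63.2 with knockdown and 72.1 in CSE, which is the upper limit of the CSE interval, against 60.4 with knockdown and 50.8 in CSE. The remaining value was GGAC per kb of listed exons, 5.37 without the last exons of APC and LRP6 against 3.02 with them, an alternative chosen after seeing the data. Counting either strand, requiring intervals wholly inside the window, widening windows by 2 kb and joining gaps of up to 100 nt moved none of the values run under them by more than these limits. No interval of the opposite strand lay in any window. No paired analysis was possible because each group had 1 list, and for the same reason no replicate could be left out. Depth of the libraries was not used here, so weak intervals cannot be judged against it.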
